A study of Homo sapiens with 4 samples.

Results

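GLIPR1 and its relatives of the cysteine-rich secretory protein family were followed in HuH7 cells, a human hepatocellular carcinoma line, with and without knockdown of MKL1 and MKL2. A list of 9 genes of the CAP superfamily was taken: GLIPR1, GLIPR2, GLIPR1L1, GLIPR1L2, CRISPLD1, CRISPLD2, PI15, PI16 and CRISP3. Of these, 8 had a probe that names a single gene, among 18417 genes so measured. GLIPR2 is not analysed here for expression. Each of the 8 had 1 such probe. The family was selected on the known difference of GLIPR1 between these same groups, and each probe by its mean over the 4 arrays, so the values of GLIPR1 are given as a description without a test. The other 7 were listed by family name, and their differences were tested in the fit across all genes.

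CAP proteins are named after cysteine-rich secretory proteins, antigen 5 of insect venom and pathogenesis-related protein 1 of plants, and share a compact sandwich-like fold. Most carry a signal peptide and are secreted or held at the cell surface. GLIPR1, first described in glioma, is expressed in myeloid cells and several tumours, and has been reported as a target of p53 and of serum response factor (SRF). MKL1 and MKL2, now named MRTFA and MRTFB, are the myocardin-related transcription factors, which bind monomeric actin and activate transcription through SRF at DNA elements called CArG boxes.

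The design compared 2 samples stably expressing a negative control shRNA with 2 stably expressing shRNA against MKL1 and MKL2, with 1 array of biotin-labelled cDNA each. All 4 were HuH7 cells below passage 10, grown in 10% serum, infected with virus made in HEK293T cells from pLKO.1 plasmids, and selected with puromycin for 7 days. The titles call the samples biological replicates without naming separate infections, so p-values cover the spread between these samples, which may be technical. An exact permutation test of 2 samples against 2 cannot give a p below 0.333, so the model across all genes was used.

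Array medians lay between 5.68 and 5.73 on the log2 scale and lower quartiles between 3.99 and 4.02. Scanner backgrounds were not used here. The probe listing MRTFA together with RBM15 read 7.77 and 7.80 on the control arrays and 6.81 and 6.91 on the knockdown arrays. MRTFB read 7.20 and 7.22 against 6.84 and 7.11, a difference that did not pass the test (limma adjusted p = 0.448). SRF read 9.80 and 9.97 against 9.37 and 9.52 and also missed the threshold (limma adjusted p = 0.188). All 13 measured hepatocyte markers lay above the upper quartile on every array and none was called in limma (1 lower at an unadjusted p under 0.05), whereas the leukocyte marker PTPRC read between 2.78 and 3.22. None of the 11 measured leukocyte markers passed in limma, with 2 higher at an unadjusted p under 0.05, and their median level was 5.18 and 5.14 on the control and 5.33 and 5.24 on the knockdown arrays. The leukocyte genes LYZ and CD68 were bright on all 4 arrays, and LYZ read between 12.02 and 12.25.

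GLIPR1 was the family member with a large difference, with a level in knockdown cells far below that in control cells. It read 11.45 and 11.37 on the control arrays and 8.98 and 8.82 on the knockdown arrays. Both knockdown values lay far below both control values. The log2 difference, knockdown minus control, was -2.51 (limma moderated SE 0.104), from 11.41 ± 0.051 to 8.90 ± 0.108 (mean ± SD, n = 2 each). On a linear scale this was 0.176 of the control level, or 5.69-fold lower. In these bulk samples, fewer cells with the transcript and less transcript per cell cannot be told apart. Taken singly, the knockdown arrays differed from the control mean by -2.43 (replicate 1) and -2.59 (replicate 2). The gap between the knockdown arrays was 0.152, close to the median gap of 0.142 over all genes, and that between the controls was 0.0724. One gene, TAGLN, had a lower log2 difference than GLIPR1 among the 18417, and 5 genes differed by -2 or less.

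**Figure D1:**
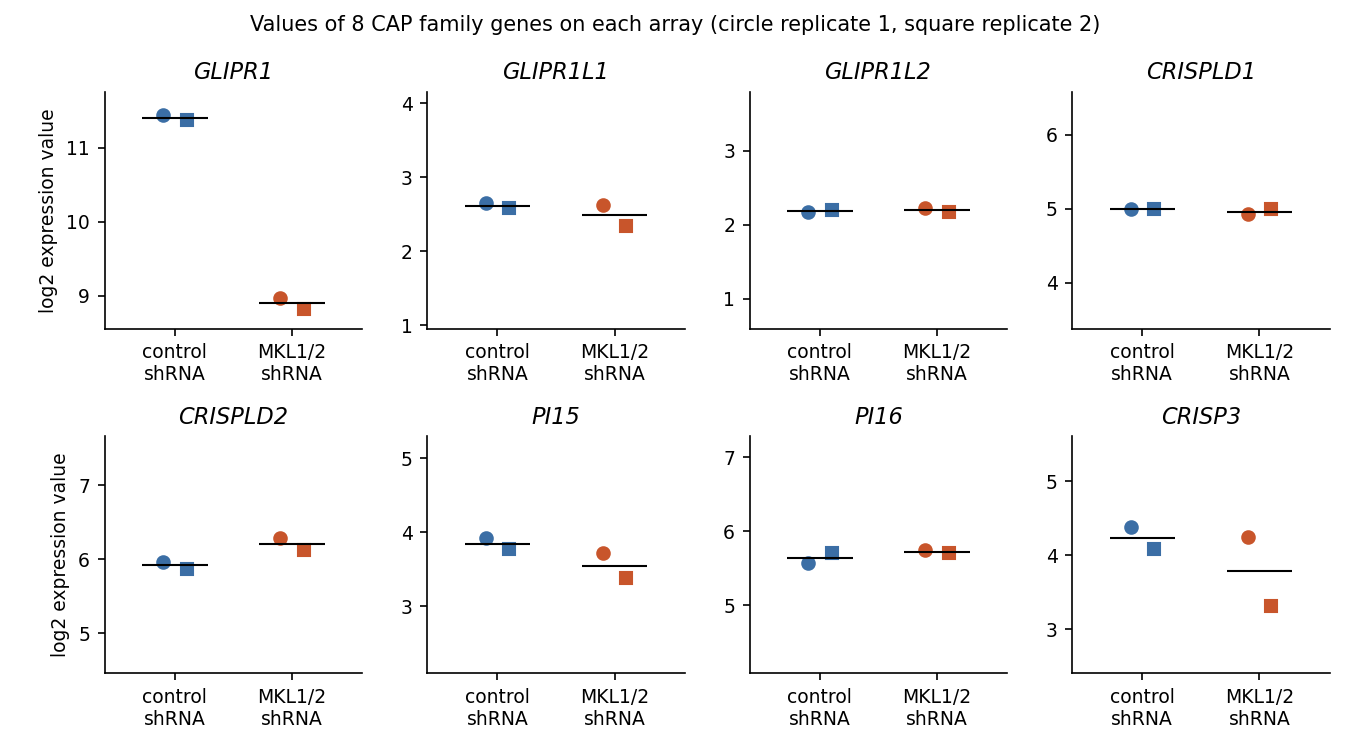
Log2 expression value (vertical axis, same span of values in each panel) of the 8 measured family members on the 2 control shRNA arrays (blue) and the 2 MKL1/2 shRNA arrays (orange); circles are replicate 1, squares replicate 2 and lines group means. GLIPR1 drops from 11.41 to 8.90, CRISP3 is low on 1 knockdown array, at 3.32, and the other members differ between groups by -0.30 (PI15) to 0.28 (CRISPLD2).

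Of all genes, 0.174% were called in limma at an adjusted p under 0.05 (0.0923% lower and 0.0814% higher). GLIPR1 was the 1 of the 8 measured members past that threshold, and nothing is read from this count because the same contrast led to the choice of the family. None of the other 7 passed, and 1 of them, CRISPLD2, had an unadjusted p under 0.05, against 14.3% of all genes. The count of members depended on the fit: with no variance moderation it was 0, as it was for all 18417 genes. Without control replicate 1 or control replicate 2 the log2 difference of GLIPR1 was -2.47 or -2.55. Its SE was then 0.158, against 0.104 with all arrays. The other 7 members had a median log2 difference of -0.04, with 4 below and 3 above 0, against 0.0082 over all genes. Their groups did not overlap for PI15, which was lower, and for CRISPLD2, which was higher, while 45.5% of all genes showed no overlap (23.0% lower and 22.5% higher).

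The nearest relatives of GLIPR1, GLIPR1L1 and GLIPR1L2, showed no such difference. These GLIPR1-like genes are known mainly from testis, and GLIPR1L1 has been described on sperm. GLIPR1L1 read 2.65 and 2.58 on the control arrays and 2.63 and 2.35 on the knockdown arrays. The groups overlapped, with knockdown replicate 2 as the low value. Its log2 difference was -0.13 (95% interval -0.43 to 0.17, limma adjusted p = 0.713). GLIPR1L2 read 2.18 and 2.20 against 2.22 and 2.17, so the groups again overlapped. Its log2 difference was 0.009 (95% interval -0.22 to 0.24, limma adjusted p = 0.979). Both probes lay below the lower quartile on all 4 arrays, and with no background level known a change of a transcript near background may not be seen. On the linear scale the intervals ran from 0.744 to 1.13 of control for GLIPR1L1 and from 0.86 to 1.18 for GLIPR1L2.

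CRISPLD1 and CRISPLD2 encode secreted proteins that join a CAP domain to LCCL domains; CRISPLD2 is known to bind lipopolysaccharide and to be induced by glucocorticoids. CRISPLD2 read 5.97 and 5.87 on the control arrays and 6.28 and 6.12 on the knockdown arrays. Both knockdown values were above both controls, by a small margin. The log2 difference was 0.28 (SE 0.106, 95% interval 0.02 to 0.54), and it did not pass over all genes (limma adjusted p = 0.312). In linear terms the interval ran from 1.02 to 1.45 of control. CRISPLD1 read 5.00 and 4.99 against 4.92 and 4.99. Its groups overlapped, and knockdown replicate 2 lay between the control values. The log2 difference of CRISPLD1 was -0.04 (95% interval -0.27 to 0.19, limma adjusted p = 0.907).

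PI15 and PI16 carry the name peptidase inhibitor; PI15 was described as a weak trypsin inhibitor, and PI16 is known from fibroblasts, where it marks a subset, and from the heart. PI15 read 3.92 and 3.77 on the control arrays and 3.71 and 3.37 on the knockdown arrays, below the lower quartile throughout. Knockdown replicate 1 lay just under the lower control, and replicate 2 further down. The log2 difference was -0.30 (SE 0.140, 95% interval -0.64 to 0.04, limma adjusted p = 0.396). PI16 read 5.57 and 5.71 against 5.75 and 5.70, with overlapping groups. Its log2 difference was 0.08 (95% interval -0.16 to 0.33, limma adjusted p = 0.773).

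CRISP3, a protein of neutrophil granules, saliva and seminal fluid, had the widest spread in the family. It read 4.38 and 4.08 on the control arrays and 4.25 and 3.32 on the knockdown arrays. Knockdown replicate 1 lay between the controls, and replicate 2 lay below all the others. The log2 difference of CRISP3 was -0.45 (SE 0.294, 95% interval -1.16 to 0.27, limma adjusted p = 0.552). It was 0.018 without knockdown replicate 2 and -0.91 without replicate 1. CRISP3 was the 1 of these 7 members whose interval reached a 2-fold change. None of the 7 intervals reached the log2 difference of GLIPR1, and the lowest bound among them was the -1.16 of CRISP3. For the dimmest members this does not exclude a fall as large as that of GLIPR1. Such a fall would take GLIPR1L1 and GLIPR1L2, at control means of 2.61 and 2.19, below the lowest value on any array. It would take PI15, at 3.85, close to that value. The GLIPR1 difference also led to the choice of the family, so the comparison is a description.

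**Figure D2:**
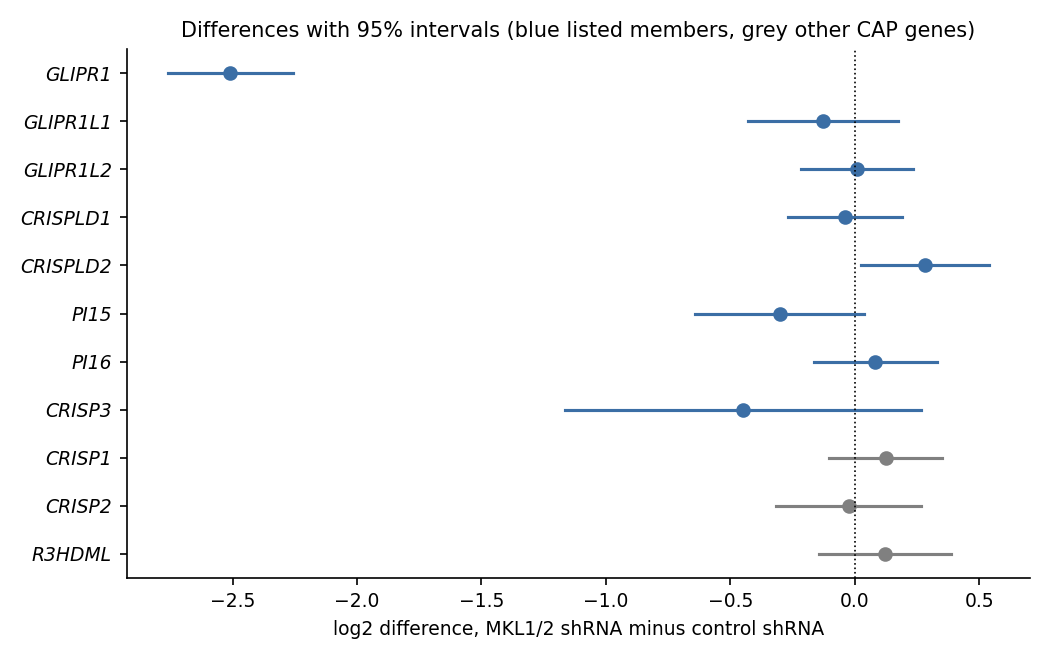
Log2 difference, MKL1/2 shRNA minus control shRNA (horizontal axis), with 95% intervals from limma over 2 arrays per group, for the 8 measured members (blue) and 3 other CAP genes (grey). GLIPR1 stands at -2.51; the intervals of the other genes, apart from CRISPLD2 at 0.28, include 0.

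Further CAP genes outside the list were looked up by name. Of 7, CRISP1, CRISP2 and R3HDML had a single-gene probe, and none passed in limma by adjusted p or at an unadjusted p under 0.05. All 3 read below the array median on all 4 arrays. CRISP1 was below the lower quartile on 4 arrays and CRISP2 on 3, so a change near background may not be seen. CRISP1, an epididymal sperm protein, read 3.46 and 3.49 against 3.58 and 3.62 (log2 difference 0.12, limma adjusted p = 0.609). CRISP2, a protein of the sperm acrosome and tail, read 3.96 and 3.97 against 3.80 and 4.07 (log2 difference -0.02, limma adjusted p = 0.954). R3HDML, named a putative peptidase inhibitor, read 4.91 and 5.09 against 5.07 and 5.17 (log2 difference 0.12, limma adjusted p = 0.685). Of these 3, CRISP1 had groups that did not overlap, as did 45.5% of all genes. The C-type lectins CLEC18A, CLEC18B and CLEC18C, which also carry a CAP domain, share 3 probes and could not be told apart. Those 3 probes had log2 differences of 0.091, 0.092 and 0.13, and were not tested.

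The gap between the arrays of 1 group does not depend on the contrast, so it was set against all genes. Between the knockdown arrays the CRISP3 gap was 0.933, larger than in 99.2% of genes. The genes were not matched for level, and CRISP3 lay below the lower quartile on knockdown replicate 2. The PI15 gap of 0.339 exceeded that of 85.3% of genes and the GLIPR1L1 gap of 0.281 that of 78.8%. PI15 and GLIPR1L1 lay below the lower quartile on all 4 arrays, as did GLIPR1L2, whose gap was small. GLIPR1, with a gap of 0.152, was near the middle of all genes. PI16, GLIPR1L2 and CRISPLD1 had knockdown gaps of 0.0464, 0.0504 and 0.0709, below the median of 0.142. Of the 8 members, 7 were higher in knockdown replicate 1 than in replicate 2, where 52.2% of all genes were. CRISPLD1 was the exception. In the controls 6 of the 8 members were higher in replicate 1 than in replicate 2, where 50.8% of all genes were. Between the control arrays, CRISP3 again had the largest gap of the family, 0.293, against a median of 0.0912 over all genes.

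**Figure D3:**
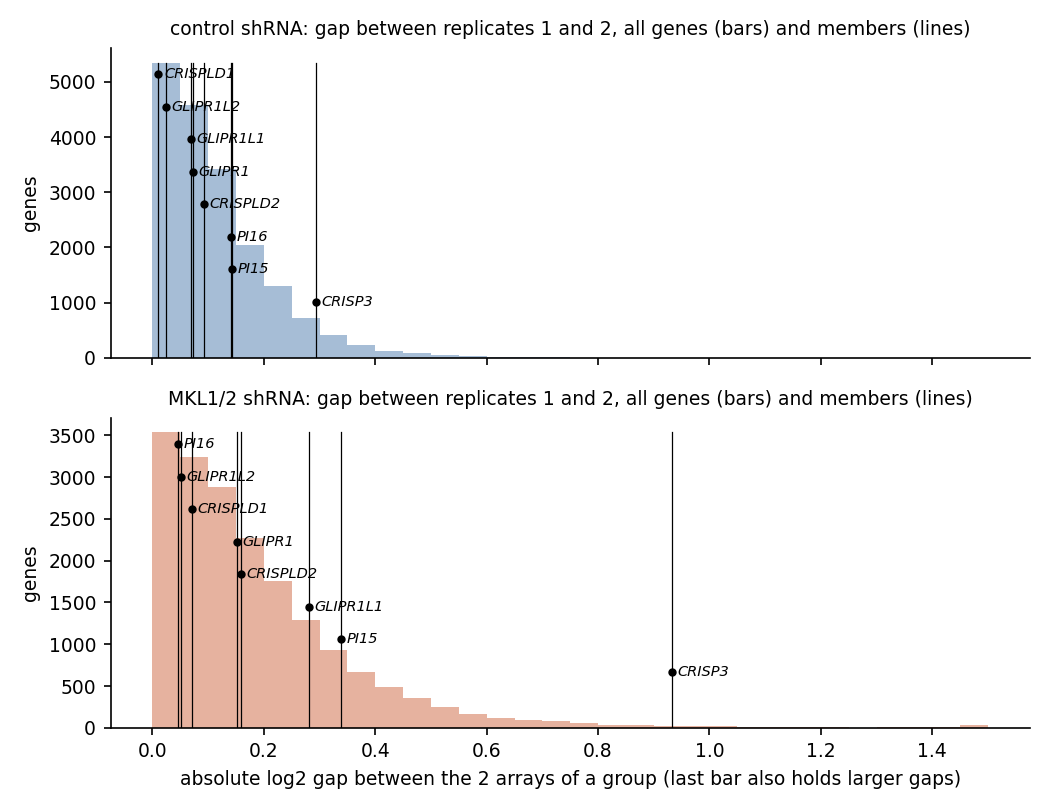
Number of genes (vertical axis) by absolute log2 gap between replicates 1 and 2 (horizontal axis), for the control arrays (top) and the MKL1/2 shRNA arrays (bottom), with a black line and dot for each measured member. CRISP3 stands out in the lower panel at 0.933, while GLIPR1 lies at 0.152, near the median of 0.142.

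GLIPR1L1, GLIPR1L2 and GLIPR1 follow each other on chromosome 12 in the RefSeq gene table, which allowed the surrounding genes to be compared. The annotated span of GLIPR1 overlaps that of the next gene, KRR1, which encodes a factor of small ribosomal subunit assembly, and that of GLIPR1L1 overlaps CAPS2. KRR1 read 8.61 and 8.46 on the control arrays and 8.29 and 8.60 on the knockdown arrays. Its groups overlapped, with a log2 difference of -0.09 (95% interval -0.41 to 0.24, limma adjusted p = 0.833). On the other side CAPS2, which encodes a calcium-binding protein, read 4.52 and 4.42 against 4.24 and 4.39 (log2 difference -0.15, limma adjusted p = 0.571).

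None of the 10 nearest measured coding genes outside the family, 5 on each side of GLIPR1, passed in limma, against 0.174% of all genes. At an unadjusted limma p under 0.05, 1 of the 10 was higher, against 14.3% of all genes in either direction. That gene was TRHDE, an ectopeptidase that degrades thyrotropin-releasing hormone, at 4.84 and 5.00 against 5.30 and 5.31. For TRHDE the log2 value differed by 0.38 (SE 0.103, limma adjusted p = 0.206). PHLDA1, a pleckstrin homology-like protein, had the lowest log2 difference of the 10, at -0.24 (limma adjusted p = 0.479), with 8.81 and 8.88 against 8.43 and 8.78. The median of the 10 was -0.05, and the lowest interval bound among them was the -0.63 of BBS10. Groups did not overlap for 2 lower and 2 higher neighbours, where 45.5% of all genes showed no overlap. On all 4 arrays 4 of the 10 read below the array median. TPH2 read below the lower quartile on all 4, so a change near background may not be seen.

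**Figure D4:**
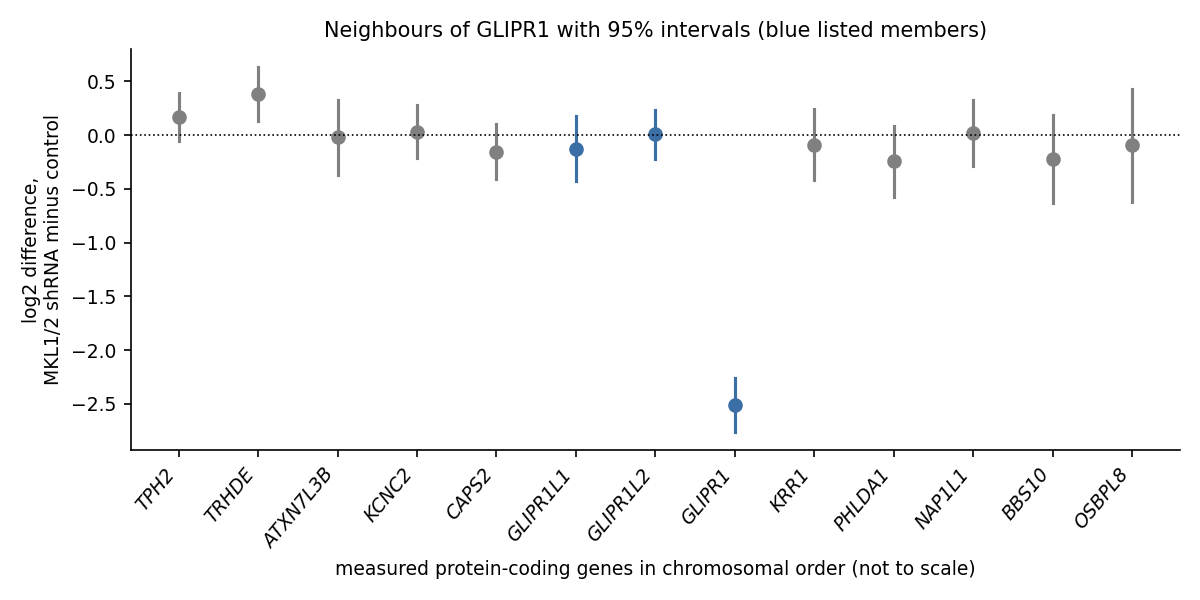
Log2 difference, MKL1/2 shRNA minus control (vertical axis), with 95% intervals from limma, for the measured protein-coding genes around GLIPR1 in chromosomal order (horizontal axis, not to scale; blue, listed members; grey, other genes). GLIPR1 lies at -2.51, and the genes beside it, GLIPR1L2 and KRR1, lie at 0.009 and -0.09. GLIPR1L2 read below the lower quartile on all 4 arrays, where a change may not be seen.

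The genes most like GLIPR1 across the arrays were found by the Euclidean distance between profiles over the 4 arrays, each gene taken relative to its own control mean. The 5 nearest were CNN1, TAGLN, LOC151760, MYH9 and VGLL3, at distances of 0.305, 0.458, 0.595, 0.603 and 0.913 log2 units. This likeness rests on 4 arrays, mostly on the size of the group difference, and is a description. CNN1, which encodes calponin 1, an actin-binding protein of smooth muscle, lay at -2.60 and -2.37 relative to its control mean on the knockdown arrays. TAGLN, which encodes transgelin, lay at -2.87 and -2.51 on the same scale. MYH9, which encodes a non-muscle myosin heavy chain, lay at -2.53 and -1.99, so that its knockdown arrays differed by 0.540 where those of GLIPR1 differed by 0.152. CNN1, TAGLN and MYH9 were each lower in knockdown replicate 1 than in replicate 2, and GLIPR1, LOC151760 and VGLL3 were lower in replicate 2. LOC151760, a long non-coding RNA, had a control gap of 0.453, and VGLL3, a cofactor of TEAD factors, lay at -1.70 and -2.04.

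**Figure D5:**
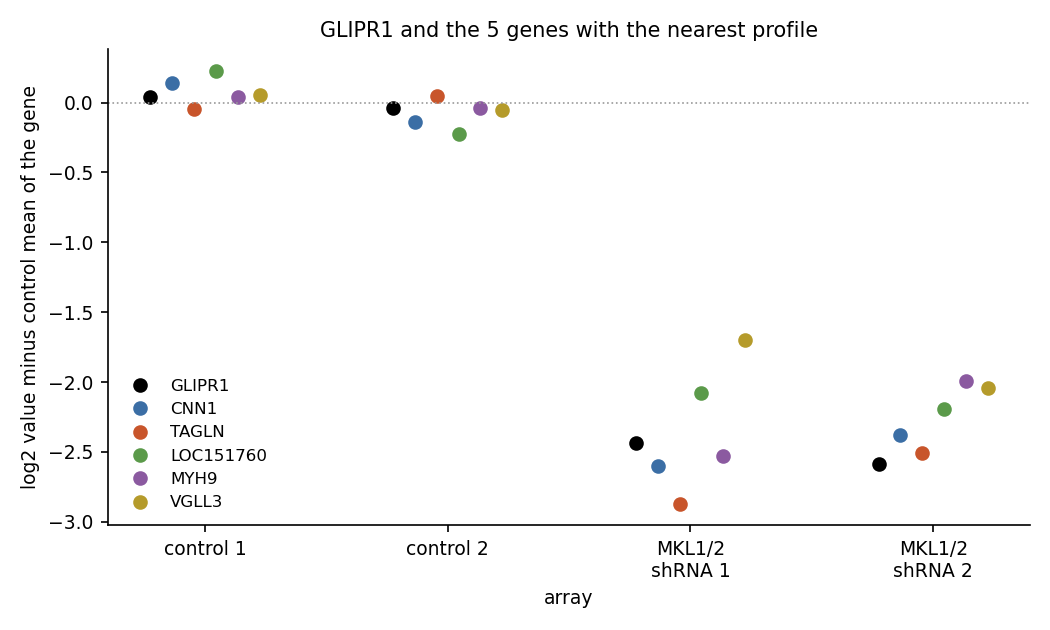
Log2 value minus the gene's own control mean (vertical axis) on each of the 4 arrays (horizontal axis) for GLIPR1 (black) and the 5 genes nearest to it by Euclidean distance; each point is 1 array. On knockdown replicate 1 GLIPR1 lies at -2.43, between TAGLN at -2.87 and VGLL3 at -1.70; on replicate 2 it is the lowest of the 6 genes, at -2.59 against -2.51 for TAGLN.

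GLIPR1 has been reported under SRF and under p53, and both settings were described from short lists of known targets. Both lists were chosen with earlier results of these data known, so their counts are a description. In the MRTF-SRF list, TAGLN, CNN1 and MYH9 were also picked above by their values on these arrays. Of 24 measured MRTF-SRF target genes, a list that leaves out GLIPR1, 4 were lower in limma at an adjusted p under 0.05 and none was higher. These 4 were TAGLN, CNN1, MYH9 and FHL2. At an unadjusted limma p under 0.05, 17 of the 24 were lower and 1 higher, against 14.3% of all genes in either direction. Log2 differences in the list ran from -2.69 to 0.43. FHL2, which encodes a LIM domain protein, differed by -1.18 on the log2 scale (SE 0.098, limma adjusted p = 0.0194). The median of the list was -0.68, against 0.0082 over all genes, and the share of all genes called lower was 0.0923%. Without control replicate 1 or control replicate 2 none of the 24 was called, while 8 were called without knockdown replicate 1 and 15 without knockdown replicate 2. Calls over all genes were also more frequent at these settings, at 1.62% (299 genes) and 4.24% (781 genes). Of 18 measured p53 target genes none passed in limma, which is near the 0.174% of all genes called. At an unadjusted limma p under 0.05, 2 of the 18 were lower and 2 higher, against 14.3% of all genes in either direction. Their median was 0.07 and their range -0.64 to 0.46. Without knockdown replicate 1, 2 of the 18 p53 targets were called, where 1.62% of all genes were, and without knockdown replicate 2, 1 was, where 4.24% of all genes were.

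Promoter sequences were searched because MRTF proteins act through SRF, which binds the CArG box, a 10-base motif that begins with CC, ends with GG and has 6 A or T bases between. The RefSeq promoter table (GRCh38.p14, 250 bases before to 50 after each start) held 6 starts for 5 members, namely GLIPR2, GLIPR1L1, CRISPLD2, PI16 and CRISP3. GLIPR1, GLIPR1L2, CRISPLD1 and PI15 were not among its entries. The motif, which reads alike on both strands, was present at 1 of these 6 starts and in 1.29% of all 35116 promoters. That start belongs to GLIPR2, which encodes a membrane-associated protein of the Golgi and is a CAP protein without a signal peptide. The stretch is shown beside that of SRF, a known target of its own product, with the CArG boxes in capitals.
GLIPR2 promoter, chr9:36136618-36136677, plus strand: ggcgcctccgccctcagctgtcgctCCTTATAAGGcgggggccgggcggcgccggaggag
SRF promoter, chr6:43171214-43171268, plus strand: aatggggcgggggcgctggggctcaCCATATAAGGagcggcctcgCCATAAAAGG

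The GLIPR2 box spans bases 90 to 81 upstream of the start, and the SRF boxes span bases 30 to 21 and 10 to 1. A match is a description of the letters and shows no binding. The other GLIPR2 start and those of GLIPR1L1, CRISPLD2, PI16 and CRISP3 held no CArG box in the window. Of the genes nearest to GLIPR1 in profile, CNN1, LOC151760, MYH9 and VGLL3 were in the table, with 6 starts in all, and none of these held a CArG box. TAGLN was not in the table. With a box in 1.29% of all promoters, none at 6 starts is near that share. Boxes outside the window were not looked for. The TEAD core motif GGAATG, or CATTCC on the other strand, was at none of the 6 member starts and in 14.0% of all promoters. It was present at 1 of the 6 nearest-profile starts (16.7%), close to the share of all promoters. That was the MYH9 start, in bases 70 to 65 upstream.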

How the data were processed

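The deposited table holds 33297 probes in 4 columns of log2 expression values, 1 per sample, made by the authors; Partek is named in the submitters' processing notes. How the authors corrected background, normalized and summarized is not given in the sources used here; a log2 scale was read from the range, 1.03 to 13.65. Probes were named from the platform annotation: 19460 list 1 symbol, 1754 several and 12083 none. Symbols were updated by Entrez identifier through RefSeq (19429 found). Of several probes of a gene, that with the highest mean was used, giving 18417 genes; dim genes were kept. At most 174 probes had identical values in any pair of arrays.

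Differences were fitted in limma 3.58.1 under R 4.3.3 by lmFit and eBayes (two-sided tests, group as sole term, 2 residual and 4.12 prior degrees of freedom). P-values were adjusted by Benjamini-Hochberg over every gene, and calls made below 0.05. The members, lists and tests were chosen with earlier results of these data known. Named genes are the members, the other CAP genes, the 5 nearest profiles, the neighbours of GLIPR1, the knocked-down genes, SRF, and list genes past the threshold; PTPRC, LYZ and CD68 were named after their values were seen. On simulated data (5 sets, 200 of 18417 genes changed) 85.2% of 2-fold and 99.6% of 4-fold changes were called. The simulated noise was equal in both groups. On the real arrays the SD of the log2 difference was 0.265 within knockdown and 0.154 within control. In the data 35 genes fell 2-fold or more and 17 genes were called lower, so the simulated shares may be too high for these arrays. Alternatives changed the normalization, dim filter, probe rule, moderation and replicate block, and left out each array. Markers of fibroblasts and smooth muscle (10 measured) and of endothelium (8 measured) were also tested, and none passed in limma or at an unadjusted p under 0.05.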

Additional observations from a re-analysis of the deposited data

How the results depend on the processing

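Over the 11 alternatives the log2 difference of GLIPR1 ran from -2.59 to -2.43. Leaving out single arrays, GLIPR1L1 ran from -0.27 to 0.014, GLIPR1L2 from -0.016 to 0.034 and CRISP3 from -0.91 to 0.018, each changing sign with no call; the lowest adjusted p in limma was 0.0593, for CRISP3 without knockdown replicate 1. CRISPLD2 stayed between 0.20 and 0.36 and PI15 between -0.47 and -0.13, and neither was called where it was tested (PI15 is left out with the dimmest 40% of genes); the lowest adjusted p in limma was 0.109 for CRISPLD2 and 0.114 for PI15.

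The median of the members other than GLIPR1 was -0.0804 after quantile normalization, 0.28 without the dimmest 40% of genes, where CRISPLD2 alone was left, and -0.0428 to 0.0184 without single arrays. The number of members called was 0 with no variance moderation and 0 to 1 without single arrays. For the MRTF-SRF targets it was 7 with a trended and robust eBayes, 0 with no moderation and 0 to 15 without single arrays, and for the p53 targets 0 to 2. Neighbours and other CAP genes had no call at any setting that tested them; without the dimmest 40% of genes 6 of the 10 neighbours and 0 of the 3 other CAP genes were left. Over all genes the count was 52 after quantile normalization, 68 with the trended eBayes and 0 without moderation, against 32, and it was 299 without knockdown replicate 1, 781 without knockdown replicate 2 and 0 without either control; the cause was not tested.

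With the replicate number as a block, 93 genes passed and 5 MRTF-SRF targets, and none of the members other than GLIPR1 was called. Same-numbered arrays did not deviate together (correlation -0.067), so the numbers were not taken to pair samples. With 2 arrays a group and no background level, small changes of dim members could not be detected.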
